A study of Mus musculus with 6 samples.

Results

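The C/EBP transcription factors were examined in cultured mouse lung fibroblasts exposed to DKK1. The genes were chosen by symbol: Cebpa, Cebpb, Cebpd, Cebpe, Cebpg and Cebpz, which are 6 of the 45706 genes in the deposited table. All 6 were found in it once, and 5 of them carried enough counts to test; Cebpe did not. The cells had been grown out of enzyme-digested lungs of wild-type mice and purified after a week in culture medium with serum, and RNA was sequenced in bulk. One group of 3 samples was the control, and the other group of 3 samples was given mouse DKK1, made as a recombinant protein, for 24 hours at 30 ng/ml. DKK1, or Dickkopf-1, is a secreted antagonist of Wnt signalling that acts on the co-receptors LRP5 and LRP6. The labels do not give the strain, age or sex of the mice, or say whether samples of a group came from separate animals, so p-values measure only the spread between these samples.

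C/EBP proteins carry a basic region that contacts DNA and a leucine zipper through which they pair with each other and with other zipper proteins. C/EBPβ and C/EBPδ are known as inducible regulators of acute-phase and cytokine genes, downstream of IL-6, IL-1 and related signals. C/EBPα is best known in adipocytes, liver, myeloid cells and alveolar epithelium, and C/EBPε in maturing granulocytes. C/EBPγ lacks a strong activation domain and acts largely as a partner that dampens or redirects the others. Cebpz is named for CCAAT binding but encodes a nucleolar protein without the family's zipper, related to a yeast ribosome-assembly factor. C/EBPβ is made as longer activating and shorter inhibitory proteins from 1 mRNA, and counts per gene cannot separate these.

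The 6 genes lie on 5 chromosomes (GENCODE annotation, GRCm38). Cebpb (ENSMUSG00000056501) is at chr2:167688915-167690418, Cebpd (ENSMUSG00000071637) at chr16:15887286-15891031 and Cebpa (ENSMUSG00000034957) at chr7:35119293-35121928, all on the plus strand. Each of these 3 has a single transcript in the table, made of 1 exon. Cebpg (ENSMUSG00000056216) lies on the minus strand of chromosome 7, at chr7:35046422-35056573, and its annotated start is 62.7 kb from that of Cebpa. Cebpe (ENSMUSG00000052435) at chr14:54710360-54712174 has 2 exons, and Cebpz (ENSMUSG00000024081) at chr17:78919006-78937066 has 16, both on the minus strand. Coding lengths ranged from 450 bases in Cebpg to 1077 in Cebpa among the zipper proteins, against 3156 in Cebpz.

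Promoters are shown for every member that had one in the sequences used here. They are Cebpb, which was higher with DKK1 in the paired fit, and Cebpa and Cebpg, which were not called. Cebpd, which had the largest log2 fold change, had none there. The sequences are from RefSeq (GRCm38.p6), run 5′ to 3′ on the gene's strand from 250 bases before to 50 bases after its start, and were matched for 3 of the 6 members. Capitals mark every match, on either strand, to the motifs searched.
Cebpb, chr2:167688665-167688964, plus strand: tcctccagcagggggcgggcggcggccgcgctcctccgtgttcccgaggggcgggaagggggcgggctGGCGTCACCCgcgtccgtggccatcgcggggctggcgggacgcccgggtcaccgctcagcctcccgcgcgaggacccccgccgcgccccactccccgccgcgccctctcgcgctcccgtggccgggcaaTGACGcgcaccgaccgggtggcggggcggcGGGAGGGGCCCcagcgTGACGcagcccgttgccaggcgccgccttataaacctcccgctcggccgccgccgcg
Cebpa, chr7:35119043-35119342, plus strand: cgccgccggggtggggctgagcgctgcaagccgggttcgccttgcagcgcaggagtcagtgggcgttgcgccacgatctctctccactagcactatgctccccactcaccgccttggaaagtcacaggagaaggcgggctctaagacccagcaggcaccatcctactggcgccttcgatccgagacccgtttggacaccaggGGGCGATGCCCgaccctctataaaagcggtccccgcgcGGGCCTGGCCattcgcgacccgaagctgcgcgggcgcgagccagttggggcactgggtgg
Cebpg, chr7:35056517-35056816, minus strand: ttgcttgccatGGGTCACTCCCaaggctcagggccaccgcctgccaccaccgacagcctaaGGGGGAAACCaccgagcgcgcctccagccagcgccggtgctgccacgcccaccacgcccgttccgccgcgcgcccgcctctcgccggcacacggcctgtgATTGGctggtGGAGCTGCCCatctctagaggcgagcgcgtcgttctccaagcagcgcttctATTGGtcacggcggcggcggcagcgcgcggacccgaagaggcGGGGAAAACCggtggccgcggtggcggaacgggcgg

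All 3 promoters were rich in G and C: 80.7% in Cebpb, 71.7% in Cebpg and 67.3% in Cebpa, against a median of 52.7% over 32851 promoters in the same table. The motifs were searched on both strands. The C/EBP motif TTNNGNAA (40.7% of all promoters), the palindrome TTGCGCAA (0.183%), the cyclic AMP response element TGACGTCA (1.79%), the AP-1 motif TGACTCA (5.2%) and the STAT motif TTCNNNGAA (8.3%) had no match in any of the 3 windows. A degenerate NF-κB motif matched all 3, as it does 50.8% of all promoters. CCAAT, the NF-Y motif held by 37.4% of promoters, matched in Cebpg only, at 89 and 28 bases before the start. The half-site TGACG, added after the sequences were seen and held by 20.8% of promoters, matched 3 times in Cebpb, at 180, 53 and 7 bases before the start, and in neither of the others. The first of these lies inside an NF-κB match. These matches describe letters in the window and show no binding.

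Levels were compared between genes only after division by exon length, as CPM (CPM being the count scaled to a common library total) per kilobase. Cebpb stood highest, at 85.7 ± 14.8 CPM per kb in control cells (SD, n = 3), above 96.2% of the 14580 tested genes with a known length. Cebpd followed at 17.0 ± 1.59 CPM per kb and Cebpz at 12.5 ± 0.635. Cebpg stood at 6.22 ± 0.308 and Cebpa at 3.01 ± 1.04 CPM per kb. The ranges over control libraries did not overlap between any neighbours in this order. The place of Cebpg depends on which of its 2 transcripts is counted: all its counts on the transcript of 4709 bases would give 6.61 CPM per kb, and all on the one of 914 bases 34.1, above Cebpd. With DKK1 the order was the same by these lengths, with Cebpb at 113 ± 5.25 and Cebpd at 23.7 ± 2.51 CPM per kb.

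**Figure D1:**
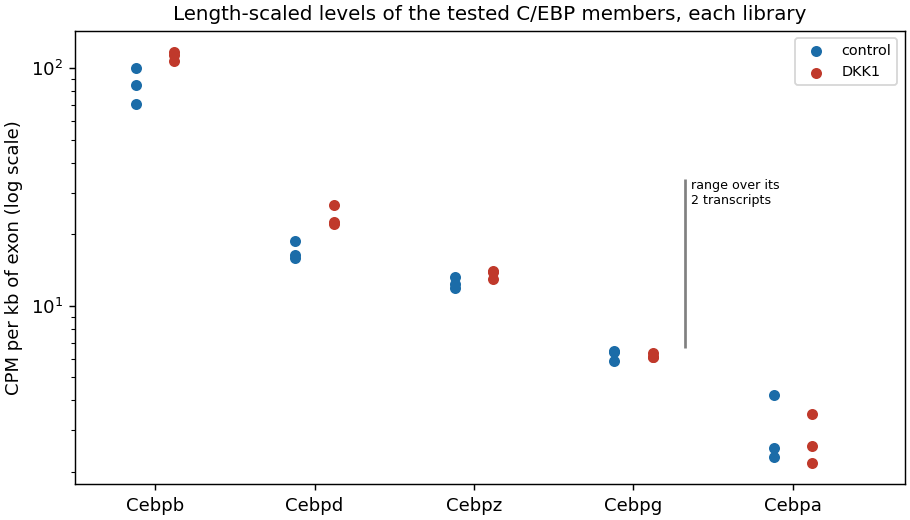
Length-scaled level (CPM per kilobase of exon, log scale) of the 5 tested C/EBP members in each of 3 control (blue) and 3 DKK1 (red) libraries; the grey line spans the control level of Cebpg if all its counts came from its longer or its shorter transcript. Cebpb lies from 71.0 to 101 in control libraries, and Cebpa from 2.31 to 4.203.

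The libraries held 22565917 to 34727102 counts, and in every same-numbered pair more counts came from the DKK1 sample. Same-numbered samples of the groups deviated together from their group means, so each value below is also given from a fit with the replicate number as a block where that changes the call. The summed level of 8 fibroblast markers was 10582 to 12086 CPM in control and 9960 to 11485 CPM in DKK1 libraries. Col1a1 was its largest part, with means of 5940 CPM in control and 5547 CPM with DKK1. Lum was the lowest of the 8, with means of 2.12 and 2.59 CPM. The sum was lower with DKK1 in all 3 pairs. With the block 6 of the 8 markers were called, against 9.42% of all tested genes. Dcn and Pdgfra were higher, and Col1a1, Col1a2, Pdgfrb and Thy1 lower. In the unpaired fit 0 of the 8 were called, against 0.895% of all tested genes. Other cells were present too, with 8 of 8 macrophage and monocyte markers, 6 of 8 epithelial, 6 of 6 endothelial and 4 of 4 mesothelial markers detected well enough to test. Adipocyte markers were at or near 0, with Plin1, Lep and Cidec at 0 in all 6 libraries. Mitochondrially encoded transcripts took 1.49% to 1.55% of counts in control and 1.63% to 1.70% in DKK1 libraries; their part in the results was not tested. In bulk RNA, fewer cells of a type and less RNA per cell cannot be told apart.

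Cebpd and Cebpb, the acute-phase pair, had the largest log2 fold changes of the 5 tested members. Both were higher in all 3 same-numbered pairs and in neither did the groups overlap, by about 1.39-fold for Cebpd and 1.31-fold for Cebpb. In the unpaired fit 0 of the 5 tested members were called, meaning a Benjamini-Hochberg adjusted p under 0.05 over 14635 genes in edgeR's quasi-likelihood test. Of all tested genes 0.895% were called, 0.697% higher and 0.198% lower. At an unadjusted p under 0.05 there were 3 members (Cebpd, Cebpb and Cebpz), against 10.6% of all genes. With the replicate block 2 of 5 were called, Cebpd and Cebpb, both higher, against 9.42% of all genes called, 4.96% higher and 4.46% lower. DESeq2 without the block also called these 2, against 2.04% of the genes it gave an adjusted p (1.44% higher and 0.6% lower), and limma-voom called 0. Groups did not overlap in 2 of the 5 members, against 16.5% of all tested genes (9.4% with DKK1 higher), and 22.3% of those genes were higher in all 3 pairs.

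Cebpd measured 59.3, 70.5 and 61.2 CPM in control replicates 1, 2 and 3, and 84.2, 99.6 and 82.5 CPM in the DKK1 samples. Every DKK1 library lay above every control library, and replicate 2 was the highest in both groups. The rise within pairs was even, at 1.42-, 1.41- and 1.35-fold. The group means were 63.7 ± 5.97 and 88.8 ± 9.40 CPM (SD, n = 3 each). The log2 fold change (log2FC) was 0.47 (SE 0.09, 95% interval 0.27 to 0.68). The edgeR adjusted p was 0.0604 without the block, just outside the threshold, and 6.6e-07 with it. In the paired fit the interval narrowed to 0.41 to 0.54, and Cebpd ranked 45 of 14635 genes by p.

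Cebpb measured 151, 128 and 107 CPM in control replicates 1, 2 and 3, and 171, 176 and 161 CPM in the DKK1 samples. The groups did not overlap, but the control libraries were spread more widely than the DKK1 libraries, with SDs of 22.3 and 7.89 CPM. The rise within pairs was accordingly uneven: 1.13-fold in replicate 1, 1.37-fold in replicate 2 and 1.51-fold in replicate 3. The means were 129 ± 22.3 and 169 ± 7.89 CPM (SD, n = 3 each), and the log2FC was 0.39 (SE 0.11, 95% interval 0.14 to 0.64). The edgeR adjusted p was 0.208 without the block and 0.000297 with it, where the interval was 0.28 to 0.51. In 1 of the 6 libraries, DKK1 replicate 2, the expected count of Cebpb was not a whole number (6129.19).

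**Figure D2:**
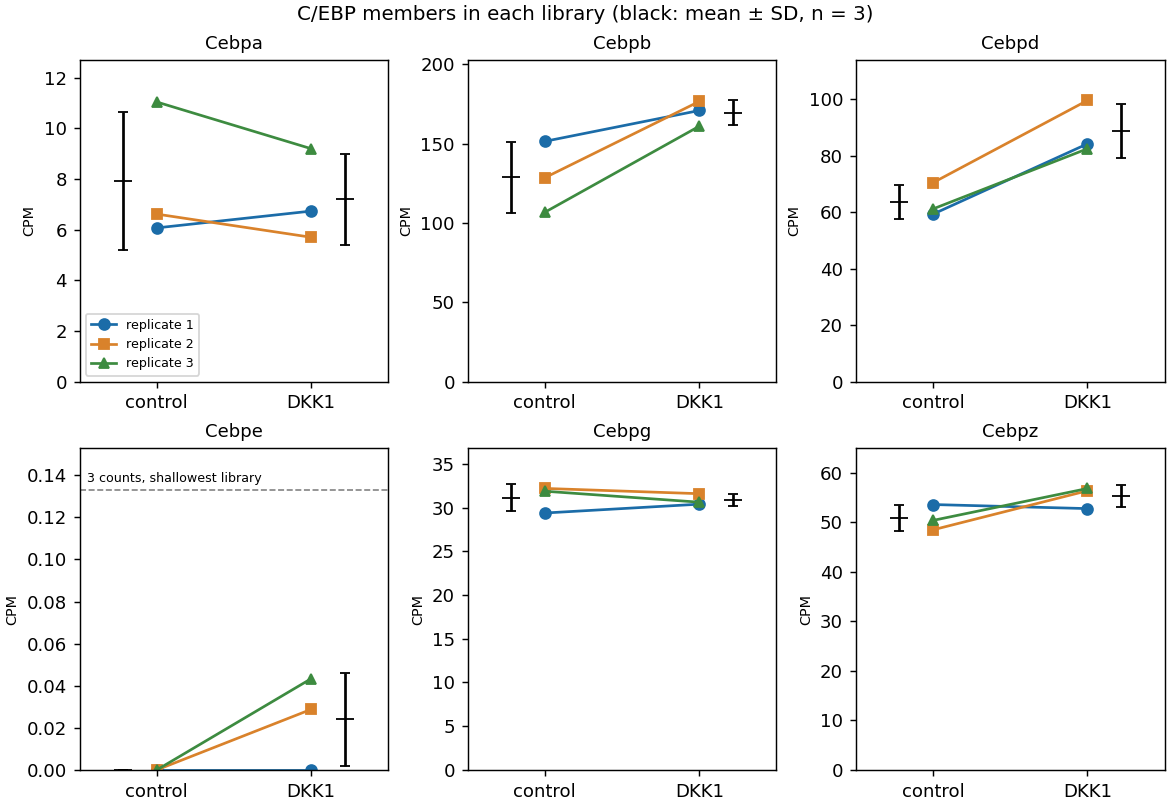
Level (CPM, linear axes from 0) of each C/EBP member in the 6 libraries, with lines joining same-numbered replicates and black bars giving mean ± SD (n = 3); the dashed line for Cebpe marks 3 counts in the shallowest library. Cebpb and Cebpd lie higher with DKK1 in all 3 pairs, while Cebpa is highest in replicate 3 of both groups.

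Whether Cebpd and Cebpb moved by different amounts was tested on the ratio of their counts within each library, which needs no scaling. The log2 ratio of Cebpd to Cebpb was -1.35, -0.87 and -0.80 in control replicates and -1.02, -0.83 and -0.96 in DKK1 samples, and the groups overlapped. The difference of 0.07 between groups was smaller than the control SD of 0.30 (exact permutation test, two-sided, p = 0.9, where 0.1 is the smallest possible). Within pairs the mean difference was 0.07 ± 0.25 (SD, n = 3 pairs; exact sign-flip permutation test, two-sided, p = 0.75, where 0.25 is the smallest possible). Without control replicate 1, where Cebpb was highest, the difference was -0.10.

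Exons of Cebpb and Cebpd overlap genes on the other strand. Whether counting used the strand is not given in the sources used here. Tmem189 overlaps 312 bases (20.7%) of the Cebpb exon; its log2FC was -0.01 (edgeR adjusted p = 0.978 without and 0.946 with the block). Spidr, a DNA repair gene, overlaps 562 bases of the Cebpd exon; its log2FC was 0.20 (adjusted p = 0.44 without and 0.0146 with the block). Cebpd held from 2.35 to 3.00 times the counts of Spidr in every library. Whether reads passed between these pairs was not tested.

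**Figure D3:**
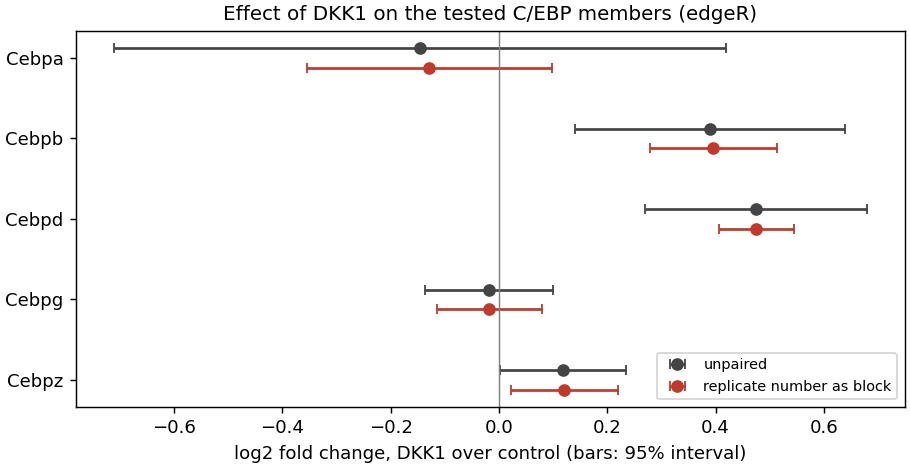
Log2FC of DKK1 over control for the 5 tested members, with 95% intervals, from edgeR without (grey) and with (red) the replicate block. The intervals of Cebpb, Cebpd and Cebpz lie above 0 in both fits, that of Cebpz starting at 0.0023 and 0.021, and those of Cebpa and Cebpg include 0 in both.

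Cebpz measured 53.6, 48.5 and 50.4 CPM in control replicates 1, 2 and 3, and 52.8, 56.4 and 56.8 CPM with DKK1. The groups overlapped through replicate 1, where the DKK1 library was 0.985 times the control, against 1.16 and 1.13 times in replicates 2 and 3. Its log2FC of 0.12 (SE 0.05, 95% interval 0.0023 to 0.23) was not called, with edgeR adjusted p-values of 0.46 without and 0.137 with the block. Cebpzos, which overlaps 171 bases (4.2%) of its exons on the opposite strand, had a log2FC of 0.09 (adjusted p = 0.872).

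Cebpg, the inhibitory partner, was the steadiest member, at 29.4, 32.2 and 31.9 CPM in control and 30.4, 31.6 and 30.6 CPM in DKK1 libraries. All 3 DKK1 values lay within the control range, and the log2FC was -0.02 (SE 0.05, edgeR adjusted p = 0.955). The 95% interval of the fold change ran from 0.909 to 1.07, and with the block from 0.924 to 1.06. It had 663 to 1097 counts per library.

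Cebpa measured 6.07, 6.62 and 11.04 CPM in control replicates 1, 2 and 3, and 6.73, 5.70 and 9.19 CPM with DKK1. The groups overlapped, and replicate 3 was the highest library in each. The log2FC was -0.15 (SE 0.25, 95% interval -0.71 to 0.42, edgeR adjusted p = 0.905; with the block -0.13, -0.35 to 0.10 and 0.547), and it was 0.16 without control replicate 3. Within pairs DKK1 was 1.11 times control in replicate 1, 0.862 in replicate 2 and 0.833 in replicate 3. It had 137 to 250 counts per library.

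Markers of 4 other lung cell types, macrophages and monocytes, epithelium, endothelium and mesothelium, were also highest in replicate 3 of both groups. The summed level of 8 macrophage and monocyte markers was 413, 480 and 834 CPM in control replicates 1, 2 and 3 and 464, 506 and 886 CPM with DKK1. The 8 epithelial markers summed to 40.2, 47.0 and 125 CPM in control and 41.8, 37.6 and 126 CPM with DKK1. Endothelial markers, 6 genes, summed to 64.4 and 63.0 CPM in replicate 3 of control and DKK1, against 21.7 to 29.3 CPM in the other 4 libraries. The 4 mesothelial markers summed to 10.9, 9.73 and 28.1 CPM in control and 10.4, 10.6 and 31.6 CPM with DKK1. The part of these cells in the Cebpa values was not tested. Cebpb showed the opposite order in control libraries, with replicate 3 the lowest at 107 CPM.

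**Figure D4:**
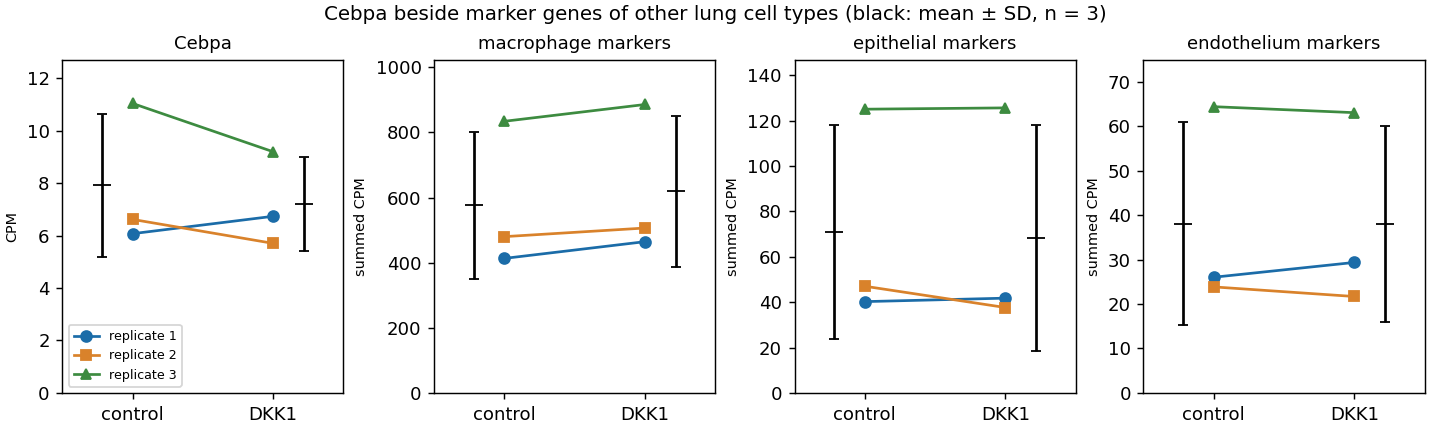
Cebpa (CPM) beside the summed CPM of 8 macrophage, 8 epithelial and 6 endothelial marker genes in each library, with lines joining same-numbered replicates and black bars giving mean ± SD (n = 3). In all 4 panels replicate 3 is the highest library in both groups.

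Cebpe, the granulocyte member, had 0 counts in the 3 control libraries and 0, 1 and 1 counts with DKK1. All lie under the floor of 3 counts, which is 0.0864 to 0.133 CPM in these libraries, so its expression was not detectable at this depth and no fold is given. Of 8 granulocyte markers, Ly6g, Ngp and Elane were at 0 in all libraries and 1, S100a8, passed the count filter. S100a8 had a log2FC of 1.49 (edgeR adjusted p = 0.0705 without and 0.000308 with the block). It measured 0.798 to 1.68 CPM in control and 2.56 to 4.03 CPM in DKK1 libraries.

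Each tested member was set beside the 3 genes whose log2 CPM was most correlated with it over the 6 libraries, among 13019 genes averaging 1 CPM or more. With so many genes and 6 libraries that share a treatment and a replicate structure, high correlations arise readily, and they are given as a description with no test. Nearest to Cebpd were Pros1 (r = 0.999), the gene of the anticoagulant protein S, and the immediate early genes Ier2 (r = 0.996) and Fos (r = 0.995). Pros1 and Ier2 were called with the block (edgeR adjusted p = 3.1e-05 and 3.8e-06) and not without it (0.0915 and 0.0918). Nearest to Cebpa were Ctsb (r = 0.998), which encodes the lysosomal protease cathepsin B, Vash1 (r = 0.995) and Tspan13 (r = 0.991), and all 3 were highest in replicate 3 of both groups. For Cebpb these were Hspa4 (r = 0.980), a heat-shock chaperone gene, Hapln4 (r = 0.979) and Msl2 (r = 0.978). For Cebpg they were Gm4631 (r = 0.995), Acp2 (r = 0.989) and Zbtb10 (r = 0.984), and for Cebpz Itpa-ps1 (r = 0.982), Chid1 (r = 0.974) and Lin52 (r = 0.974). Among the 10 pairs of tested members, the correlation was highest between Cebpb and Cebpz (0.77), followed by Cebpb and Cebpd (0.74), and lowest between Cebpa and Cebpb (-0.67).

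Genes that work with the family were read from the same fit, in lists that were drawn up with earlier results of these data known and are not independent evidence. Counts of calls in each list stand beside 0.895% of all tested genes called in the unpaired fit (0.697% higher) and 9.42% with the block (4.96% higher and 4.46% lower). The list of bZIP partners held 16 genes, of which 15 were tested. Of these 2 were called higher (Nfil3 and Junb), 1 lower (Atf5) and 12 neither, with a median log2FC of 0.05 against 0.00 over all tested genes. That median has no stable sign: it was -0.03 without control replicate 1, -0.0078 without DKK1 replicate 1 and -0.02 with at least 10 counts required in every library. With the block 3 were called higher and 3 lower. Nfil3, which encodes a zipper repressor, measured 51.7, 57.4 and 51.4 CPM in control and 76.4, 75.2 and 67.0 CPM with DKK1, with no overlap. Its log2FC was 0.44 (SE 0.07, edgeR adjusted p = 0.0255), close in size to those of Cebpb and Cebpd. Junb, an AP-1 subunit, had a log2FC of 0.41 (adjusted p = 0.02), and that of Fos, another, was 0.73 (adjusted p = 0.0743; with the block 1.1e-06). The unpaired call of Junb was lost without any 1 library other than DKK1 replicate 3, and that of Nfil3 without control replicate 1 or 3 or DKK1 replicate 1 or 2; both stayed higher, at 0.35 or more.

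Atf5 was the partner called lower in the unpaired fit. It fell from 219 ± 10.6 to 186 ± 3.46 CPM (SD, n = 3 each), and the log2FC was -0.24 (SE 0.04, edgeR adjusted p = 0.0417). Ddit3 encodes CHOP, a C/EBP relative that pairs with the family and blocks binding to its usual sites. It measured 17.1, 15.04 and 17.7 CPM in control and 13.7, 13.7 and 14.7 CPM with DKK1, without overlap. Its log2FC was -0.25 (adjusted p = 0.272; with the block 0.0375), and that of Atf4, its upstream activator in the stress response, was -0.09 (adjusted p = 0.505; with the block 0.0197). The blocked call of Ddit3 was lost at equal depth (adjusted p = 0.0595) and without any 1 pair (0.0812 to 0.17), and that of Atf4 without replicate 1 or 2 of both groups (0.0684 and 0.179). The unpaired call of Atf5 was lost when any 1 of the 6 libraries was left out, with log2FC values of -0.27 to -0.20.

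Of 23 upstream regulators, all tested, 2 were called higher, 0 lower and 21 neither, with a median log2FC of 0.10. The median was 0.03 without control replicate 3, 0.06 without DKK1 replicate 2, 0.15 without control replicate 1 and 0.19 without DKK1 replicate 3. With the block 12 were called higher and 2 lower (Trib3 and Nr3c1, the glucocorticoid receptor gene), against 4.96% and 4.46% of all tested genes. Lif, an IL-6 family cytokine, measured 26.4, 24.0 and 23.0 CPM in control and 42.8, 36.4 and 35.9 CPM with DKK1, with no overlap. Its log2FC was 0.64 (SE 0.08, edgeR adjusted p = 0.0125). Nfkbiz, which encodes a nuclear cofactor of NF-κB, had one of 0.43 (SE 0.07, adjusted p = 0.0276). Socs3, the feedback inhibitor induced by STAT3, stood at 39.0, 49.0 and 43.6 CPM in control and 66.5, 76.4 and 54.8 CPM with DKK1. Its log2FC was 0.58 (adjusted p = 0.0918; with the block 2.7e-05), whereas that of Stat3 itself was 0.04 (adjusted p = 0.769; with the block 0.378). Trib1, a pseudokinase that directs C/EBPα to degradation, had a log2FC of 0.29 (adjusted p = 0.136; with the block 0.000408). The unpaired call of Lif was lost without control replicate 2 (0.63), and that of Nfkbiz without any 1 library other than DKK1 replicate 3 (0.38 to 0.47), while Socs3 was called without DKK1 replicate 3 (0.70).

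Acute-phase and inflammatory genes with known C/EBP regulation formed the list with the largest values. Of 22 genes 15 were tested, and 8 were called higher, 0 lower and 7 neither, with a median log2FC of 1.37; with the block 12 were called higher. Genes of the hepatic acute phase (Saa1, Saa2, Fgb) had 0 counts in all libraries, and Fgg and Orm1 at most 3. Others of that kind were detected: Hp, the haptoglobin gene, measured 0.886, 1.10 and 2.43 CPM in control and 6.91, 3.74 and 5.42 CPM with DKK1, with no overlap. Its log2FC was 1.87 (edgeR adjusted p = 0.0678 without and 0.000198 with the block), and that of Lbp was 0.65 (0.573 without and 0.258 with it). C3, the central complement component, measured 9.75, 14.4 and 15.2 CPM in control and 46.9, 49.2 and 45.1 CPM with DKK1. That is a log2FC of 1.83 (SE 0.13, edgeR adjusted p = 0.00154), with DKK1 libraries closer together than control libraries. The chemokine gene Cxcl2 had only 2, 4 and 9 counts in control libraries and 44, 38 and 34 with DKK1, a log2FC of 2.70 (SE 0.44, adjusted p = 0.0336), and of 3.47 without control replicate 3. Lcn2 had 2, 8 and 9 counts in control and 53, 64 and 92 with DKK1. These 2 genes passed the count filter only through the DKK1 libraries; with at least 10 counts required in every library neither was tested, and the list had 6 calls in place of 8. Lcn2, Cxcl5, Cxcl1 and Il6 were also called, with log2FC values of 3.26, 2.27, 1.82 and 1.37. Saa3, with 2.54, was not called in the unpaired fit (adjusted p = 0.0922) and was called with the block (5.0e-05). Unpaired calls were lost for Cxcl2 without any 1 library other than control replicate 3 (2.37 to 2.84), for Lcn2 without control replicate 1 or 2 or DKK1 replicate 1 or 2 (2.89 to 3.45) and under limma-voom (3.23, adjusted p = 0.0614), and for Cxcl1 without DKK1 replicate 1 (1.83). The list's 8 calls became 5 and 4 without control replicates 1 and 2, and 4 and 5 without DKK1 replicates 1 and 2.

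Macrophage genes also differed beside this list. With the block 5 of the 8 markers were called, against 9.42% of all tested genes. Marco, Itgam and Adgre1 were higher, by log2FC values of 1.67, 1.07 and 0.54, and Mrc1 and Csf1r lower, by -0.45 and -0.25. Ptprc (log2FC -0.15), Cd68 (-0.17) and Lyz2 (0.06) were not called with the block. In the unpaired fit 0 of the 8 were called, against 0.895% of all tested genes. The edgeR adjusted p-values there were 0.116 for Marco and 0.136 for Itgam. Without the low-count filter these 2 were called (edgeR adjusted p = 0.00109 and 0.00183). The summed level of the 8 markers, most of it Lyz2, overlapped between groups but was higher with DKK1 in all 3 pairs. The part of these cells in the list's values, or in those of Cebpb and Cebpd, was not tested.

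**Figure D5:**
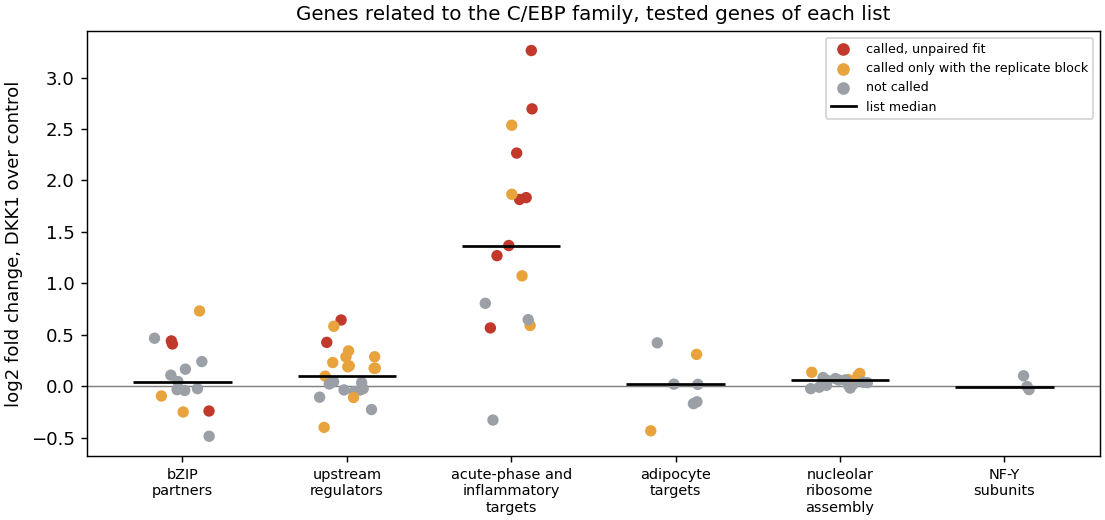
Log2FC (DKK1 over control) of each tested gene in 6 lists related to the C/EBP family; red points were called in the unpaired fit, orange points only with the replicate block, grey points in neither, and black lines are list medians. The median of the acute-phase and inflammatory list is 1.37, and those of the other 5 lists are at most 0.10.

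Of 13 adipocyte targets of C/EBPα 7 were tested and 0 were called in the unpaired fit, where 0.895% of all tested genes were called, so the count says little about the list. They had a median log2FC of 0.02. The median changed sign without control replicate 1 (-0.01), DKK1 replicate 1 (-0.0086) and DKK1 replicate 3 (-0.21), and was 0.05 and 0.04 without control and DKK1 replicate 2 and 0.012 without control replicate 3. Adipoq reached at most 2 counts in any library, and Plin1, Lep and Retn had none. With the block 1 was called higher (Cd36, log2FC 0.33) and 1 lower (Lpl, the lipoprotein lipase gene, -0.43), against 9.42% of all tested genes in either direction. Cd36, like Cebpa, was highest in replicate 3, at 34.7 and 42.8 CPM against 11.9 to 18.5 CPM in the other 4 libraries. Lpl was also highest in replicate 3 of each group, at 77.8 CPM in control and 58.9 CPM with DKK1. Nucleolar ribosome-assembly genes, chosen for the known role of Cebpz, were tested in all 17 cases and 0 were called, again beside 0.895% of all genes, with a median log2FC of 0.06 beside 0.12 for Cebpz. The median was 0.03 without DKK1 replicate 3. With the block 4 were called higher (Nop56, Ncl, Npm1 and Rrs1), by log2FC values of 0.07 to 0.14, against 4.96% of all tested genes called higher. The 3 genes of NF-Y, the main CCAAT-binding factor, lay between -0.03 and 0.10, and 0 were called with or without the block.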

How the data were processed

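RNA sequencing of 3 control and 3 DKK1-treated cultures was used. The authors deposited RSEM expected counts per gene, unscaled, for each sample; STAR, RSEM, edgeR 4.2.1 and GRCm38 (mm10) are named in the submitters' processing notes. Versions of STAR and RSEM, the annotation and the strandedness are not given in the sources used here. Symbols came from a supplied table (45143 of 45706 identifiers matched), and lengths, positions and overlaps from GENCODE M21, over the transcripts listed in the deposited table.

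Rounded counts were analysed with edgeR 4.0.16 (R 4.3.3): filterByExpr (minimum count 10; 14635 genes kept), TMM factors and a two-sided quasi-likelihood test on a design of group alone. Benjamini-Hochberg adjustment covered all tested genes, and genes under 0.05 were called. CPM uses library totals. Standard errors are the log2 fold change over the root of F, and 95% intervals use the fit's degrees of freedom. The fit without the block was tested on simulated data with known changes. The simulation held no replicate structure, and the block was not tested on it. The depth sets a floor of 3 counts, for counting error only, because no molecular identifiers mark single molecules.

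Titles number the replicates 1 to 3 in both groups without saying what a number stands for. Across genes, departures from the group mean correlated between samples of one number at 0.24, 0.19 and 0.36, so the numbers were taken to pair the samples. The alternatives were DESeq2 1.42.0 and its size factors, library totals, no filter, 10 counts in every library, limma-voom 3.58.1, unrounded counts, equal depth, the replicate block and leaving out each library; leaving out each pair was added after seeing the data. The members, lists and alternatives were chosen with earlier results of these data known. Named genes are the members, up to 6 called genes per list by size of change, 8 fixed genes (Ddit3, Atf4, Trib1, Stat3, Socs3, Nfkbiz, Il6 and Lcn2) and 3 nearest genes a member; others were named after their values were seen. Motifs were searched in RefSeq promoters (GRCm38.p6).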

Additional observations from a re-analysis of the deposited data

How the results depend on the processing

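The log2 fold changes of Cebpb, Cebpd and Cebpz kept their sign in all 22 alternatives run for each. Those of Cebpa ranged from -0.346 to 0.156 and those of Cebpg from -0.0576 to 0.00921 over the 6 fits that each left out 1 library; without replicate 3 of both groups Cebpg was at 0.00127, and 0.000682 with the block. The number of members called, 0 in the unpaired fit, was 2 without a low-count filter, under DESeq2, with the replicate block and with the block at equal depth. It was 0 in every fit that left out 1 library or 1 pair without the block. With the block it was 3, 2 and 2 without replicates 1, 2 and 3, the third gene being Cebpz. Blocked fits without a pair leave little residual spread to measure, so their calls carry little weight. Without replicate 1 such a fit gave Cebpb an edgeR adjusted p of 1.4e-46. The difference in the log2 ratio of Cebpd to Cebpb ranged from -0.102 to 0.172 when 1 library was left out.

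Of all genes, 131 were called, against 329 without a filter, 289 under DESeq2, 1379 with the block and 1390 with the block at equal depth. Leaving out 1 library gave 36 to 139. Without replicates 1, 2 and 3 of both groups there were 6, 5 and 149. With the block there were 1312, 612 and 1059 without them, in fits that leave little residual spread to measure. The bZIP partners went from 3 to 6 with the block, 5 with the block at equal depth and 5 with the block without replicate 3; they were 0, 0 and 1 without replicates 1, 2 and 3 of both groups, and 0 to 2 without 1 library. The upstream regulators went from 2 to 7 without a filter, 5 under DESeq2 and 14 with the block at full and at equal depth. With the block they were 12, 7 and 11 without replicates 1, 2 and 3. Without the block they were 0, 0 and 3 without replicates 1, 2 and 3 of both groups, and 0 to 4 without 1 library. The acute-phase and inflammatory list, with 8, had 4, 1 and 9 without replicates 1, 2 and 3 of both groups. Without 1 library it had 4 to 9. The adipocyte list, with 0, had 2 with the block, at full and equal depth and without any 1 pair, and 1 without replicate 3 of both groups. The nucleolar list, with 0, had 4 with the block at full and equal depth and 3, 1 and 2 without replicates 1, 2 and 3. Fits that left libraries out also had fewer samples. The causes of these differences were not tested.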
